A study of Mus musculus with 14 samples.

Results

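AMPA receptors carry most fast excitatory transmission onto parvalbumin (PV) interneurons, and 10 genes that build or assist them were followed through hippocampal PV neurons after chronic social defeat stress (CSDS). They were picked by name from the 39017 genes of the count table and are the 4 pore subunits (Gria1, Gria2, Gria3 and Gria4), 3 transmembrane AMPA receptor regulatory proteins, or TARPs (Cacng2, Cacng3 and Cacng8), and 3 neuronal pentraxins (Nptx1, Nptx2 and Nptxr). All 10 passed the filter on low counts. RNA came from the hippocampus of male C57BL/6 mice in which PV-Cre switched on a Cre-dependent EGFP-L10a, a tagged ribosomal protein, and tagged ribosomes were captured from the homogenate by translating ribosome affinity purification (TRAP). Behavior began at 8 to 12 weeks of age. Defeated mice met a new CD1 aggressor on each of 10 days and were then split by a social interaction ratio under 1 (susceptible) or over 1 (resilient). Non-defeated mice were housed in pairs without contact with CD1 mice. TRAP libraries came from 4 non-defeated, 4 resilient and 3 susceptible samples, and 3 libraries were hippocampal input of non-defeated mice, for which the labels give no genotype and the same molecule type as for TRAP. How many mice stand behind a library is not given in the sources used here, so p-values measure the spread between libraries. Libraries are called by the number in their sample names.

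AMPA receptors are tetramers of the 4 GluA subunits, and receptors that lack edited GluA2, the product of Gria2, let calcium through and open and close fast. PV interneurons are known for GluA4-rich, GluA2-poor receptors of this kind. TARPs bind the receptor, bring it to the synapse and slow its closing. Neuronal pentraxins are secreted or membrane-bound proteins that gather AMPA receptors, GluA4 in particular, at excitatory synapses onto these interneurons, and excitatory neurons are a main source of them.

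The stretch of each subunit gene that codes for the pore is shown because the subunit that differs most in function, GluA2, is set apart by RNA editing of 1 codon there. In each sequence the capitals mark this Q/R-site codon, which reads as glutamine in the genome and which the enzyme ADAR2 recodes to arginine in the Gria2 transcript. The stretches are 63 bases from the coding strand of GENCODE transcripts, mm10 build, 5′ to 3′, each within 1 exon.
Gria1: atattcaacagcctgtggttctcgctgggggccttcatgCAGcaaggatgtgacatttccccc
Gria2: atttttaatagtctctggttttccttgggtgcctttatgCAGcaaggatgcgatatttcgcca
Gria3: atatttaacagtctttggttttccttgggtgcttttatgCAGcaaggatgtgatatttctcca
Gria4: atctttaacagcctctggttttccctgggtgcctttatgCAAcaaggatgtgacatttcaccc

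The Gria1 stretch lies at chr11:57243055-57243117 on the plus strand, in exon 11 of 16, with codon 600 marked. That of Gria2 lies at chr3:80706890-80706952 on the minus strand, in exon 11 of 16, with codon 607 marked. Gria3 has it at chrX:41610226-41610288 on the plus strand, in exon 11 of 16, with codon 612 marked, and Gria4 at chr9:4464116-4464178 on the minus strand, in exon 12 of 17, with codon 608 marked. Between pairs of genes, 49 to 57 of the 63 bases were identical, the fewest between Gria1 and Gria2 and the most between Gria2 and Gria3. The marked codon is CAG in Gria1, Gria2 and Gria3 and CAA in Gria4. Before editing the 4 genes thus encode the same residue here, and counts per gene cannot show how much of Gria2 was edited.

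The whole genes, in mm10, lie at chr11:57011387-57330244 (Gria1, plus strand), chr3:80681450-80802835 (Gria2, minus), chrX:41400854-41678601 (Gria3, plus) and chr9:4417896-4796234 (Gria4, minus). The TARP genes lie at chr15:77991748-78120028 (Cacng2, minus), chr7:122670492-122769393 (Cacng3, plus) and chr7:3390683-3415648 (Cacng8, plus). The pentraxin genes lie at chr11:119538719-119547753 (Nptx1, minus), chr5:144545902-144557478 (Nptx2, plus) and chr15:79786351-79804766 (Nptxr, minus). No 2 members overlap each other. Nptxr shares 890 exon bases with Npcd on the same strand, and Cacng2 shares 323 with the antisense gene A730060N03Rik, so reads in those bases can belong to either gene of the pair.

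Total counts per library ran from 64110214 to 80063224 in input and from 72098582 to 94726962 in TRAP, and the least abundant member, Cacng8, had at least 62 counts in each. Pvalb, which encodes PV, was enriched in non-defeated TRAP (log2 fold change 5.85 over input, adjusted p = 7.89e-11). So were 6 of 6 genes of the PV interneuron list (Pvalb, Gad1, Gad2, Erbb4, Kcnc1 and Kcnc2), of which Gad1 and Gad2 mark GABA neurons at large. In contrast, 6 of 6 hippocampal excitatory markers, 5 of 5 oligodendrocyte markers, 5 of 5 microglial markers and 4 of 5 astrocyte markers were lower. Other lists did not all follow: of 6 markers of other interneurons 2 were higher and 3 lower, the higher being Npy (log2 fold change 2.79, adjusted p = 7.10e-06) and Sst (1.61, adjusted p = 0.000753), and of 4 endothelial markers 1 was higher, Cldn5 (1.22, adjusted p = 0.0136), and 0 lower. None of the PV, excitatory, interneuron and glial markers was at 0 in a TRAP library. Markers of thalamic neurons, which the hippocampus should lack, summed to over 200 CPM (counts scaled to library size) in 4 libraries (non-defeated 9 and 11, resilient 7 and input 14) against 31.0 to 127 in the other 10, and susceptible library 10 stood apart from the rest on the third principal component. The tests were therefore repeated without the 4, and without each library.

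To see which AMPA receptor parts PV neurons favor, TRAP of non-defeated mice was compared with input. Of the 10 members, 2 were higher in TRAP (Gria4 and Cacng2), 4 were lower (Gria2, Nptx1, Nptx2 and Nptxr) and 4 passed in neither direction (Gria1, Gria3, Cacng3 and Cacng8), at an adjusted p under 0.05 in edgeR's quasi-likelihood test. Of all 21298 genes tested, 27.4% were higher and 27.6% lower by the same rule, 55.0% in all, so a call of either direction was common. Levels did not overlap between TRAP and input for the 6 members called and overlapped for the other 4. That is 6 of 10 members without overlap, near the 62.0% of all genes. The 6 calls held without the 4 libraries with high thalamic markers. The median log2 fold change of the 10 was -0.03 and that of all genes -0.04. TRAP and input differ in preparation as well as in cells, and in bulk RNA fewer cells of a type cannot be told apart from less RNA per cell.

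Gria4, the gene of the fast-gating subunit, was raised. In TRAP it had 53.3, 52.8, 55.9 and 52.4 normalized CPM in non-defeated libraries 1, 6, 9 and 11, and in input 14.7, 17.3 and 21.7 CPM in libraries 12, 13 and 14. The 4 TRAP libraries lay close together and far above all 3 input libraries (log2 fold change 1.58, SE 0.20, 95% interval 1.15 to 2.02, adjusted p = 1.41e-05). Over the libraries alone, the exact permutation p was 0.0286, two-sided, the smallest that 4 against 3 libraries can give.

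Gria2, whose edited product blocks calcium entry, went the other way. Its normalized levels were 84.4, 86.2, 103 and 126 CPM in non-defeated TRAP libraries 1, 6, 9 and 11 and 207, 219 and 177 CPM in input. Every TRAP library was below every input library, by 2.01-fold on the fitted scale (log2 fold change -1.01, SE 0.17, 95% interval -1.38 to -0.64, adjusted p = 0.000181, exact permutation p = 0.0286). Libraries 9 and 11, the pair with high thalamic markers, were the higher ones in non-defeated TRAP. Input library 14, also high in thalamic markers, was the lowest input library. Resilient library 7, with the highest thalamic sum (591 CPM), had 87.3 CPM of Gria2. A part of thalamic RNA in these levels was not tested.

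Gria1 and Gria3 showed no such shift. Gria1 ran from 286 to 341 CPM in TRAP and from 278 to 334 CPM in input (log2 fold change 0.02, 95% interval -0.32 to 0.35, adjusted p = 0.943). Gria3 ran from 38.8 to 41.9 CPM in TRAP and from 40.4 to 44.1 CPM in input (log2 fold change -0.07, 95% interval -0.29 to 0.15, adjusted p = 0.601). TRAP and input overlapped for both genes.

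**Figure D1:**
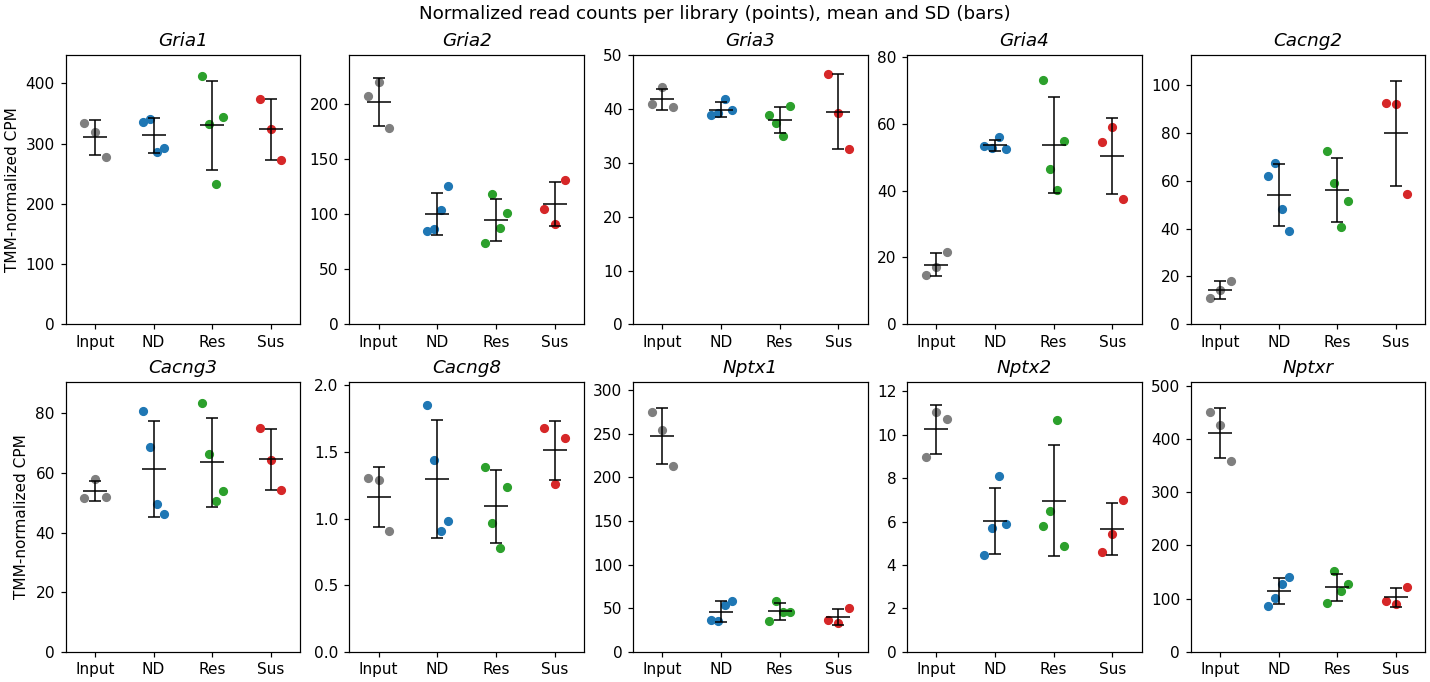
TMM-normalized CPM (y axes) of the 10 members in each library (points) of input, non-defeated (ND), resilient (Res) and susceptible (Sus) groups, with bars for the mean and SD. Gria4 and Cacng2 lie higher in the 3 TRAP groups than in input, and Gria2, Nptx1 and Nptxr lower, while the TRAP groups overlap one another for every gene.

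Among the TARPs, Cacng2, which encodes stargazin, the founding member of the family, was raised. It had 61.8, 67.6, 48.1 and 38.8 normalized CPM in non-defeated TRAP libraries 1, 6, 9 and 11 and 10.8, 14.1 and 18.1 CPM in input. The lowest TRAP library was above the highest input library, and the fitted difference was 3.76-fold (log2 fold change 1.91, SE 0.26, 95% interval 1.35 to 2.47, adjusted p = 2.55e-05, exact permutation p = 0.0286). The antisense gene A730060N03Rik was raised as well (log2 fold change 1.43, adjusted p = 4.27e-05), and since the library kit does not mark strand, reads of the shared bases cannot be assigned between them.

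Cacng3, a TARP close to stargazin in sequence, ran from 46.3 to 80.7 CPM in TRAP and from 51.7 to 57.8 CPM in input (log2 fold change 0.19, 95% interval -0.24 to 0.62, adjusted p = 0.445). Cacng8, the TARP best known from hippocampal pyramidal cells, was scarce everywhere, with 0.903 to 1.85 CPM in TRAP and 0.904 to 1.30 CPM in input (log2 fold change 0.16, 95% interval -0.46 to 0.77, adjusted p = 0.666). Both overlapped between TRAP and input. Cacng8 has the highest GC content of the 10 members, 65.1% of the bases of its longest transcript, and rested on 62 to 133 counts per library.

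All 3 pentraxin genes were lower in TRAP. Nptx1, a secreted pentraxin, had 36.7, 35.3, 53.6 and 58.7 normalized CPM in TRAP libraries 1, 6, 9 and 11 and 275, 254 and 213 CPM in input. Input was higher by 5.37-fold (log2 fold change -2.42, SE 0.21, adjusted p = 3.14e-07), the largest difference of the 10 members. Nptxr, the membrane-bound pentraxin receptor, had 86.2, 101, 127 and 140 CPM in TRAP and 451, 426 and 359 CPM in input. The groups were again far apart, by 3.63-fold (log2 fold change -1.86, SE 0.18, adjusted p = 1.18e-06), and Npcd, which shares bases with Nptxr, was lower too (log2 fold change -1.55, adjusted p = 1.25e-06). Nptx1 and Nptxr both reached the smallest exact permutation p of 0.0286.

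Nptx2, an activity-induced secreted pentraxin also called Narp, was the least firm of the 6 calls. It had 4.45, 5.70, 8.10 and 5.87 CPM in TRAP libraries 1, 6, 9 and 11 and 8.96, 11.04 and 10.7 CPM in input. TRAP library 9 came close to input library 12, though no library crossed over (log2 fold change -0.76, SE 0.25, adjusted p = 0.0187, exact permutation p = 0.0571). The call was lost without non-defeated library 1 (adjusted p = 0.0524), input library 13 (adjusted p = 0.0616) or input library 14 (adjusted p = 0.0545).

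**Figure D2:**
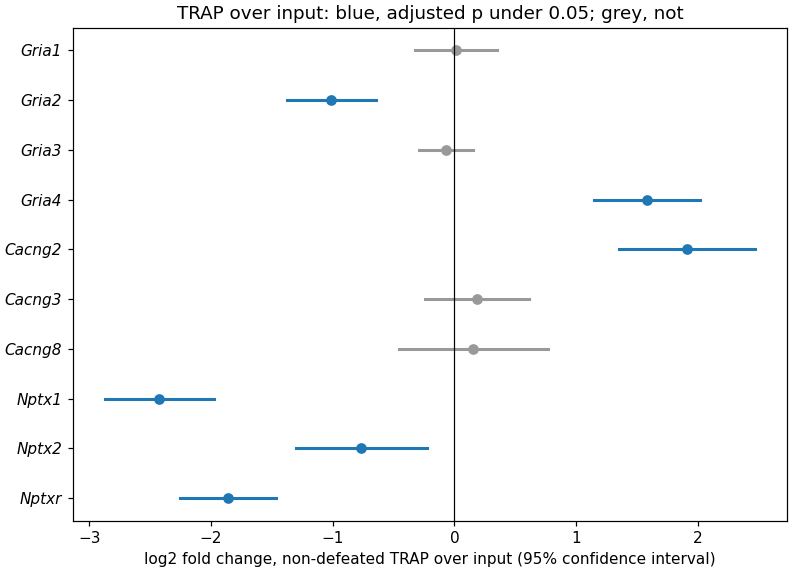
Log2 fold change of each member in non-defeated TRAP over input (x axis, points) with 95% confidence intervals (lines). Blue marks an adjusted p under 0.05, with Gria4 and Cacng2 to the right of 0 and Gria2 and the 3 pentraxins to the left.

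Beside the lower members, the 6 hippocampal excitatory markers (Slc17a7, Neurod2, Neurod6, Prox1, Camk2a and Fibcd1) summed to 1866 to 2236 CPM in input and 645 to 866 CPM in non-defeated TRAP. Their part in the lower levels of Gria2 and the pentraxins was not tested as a cause, but the levels of the 10 members were set beside the summed level of each of the 8 marker lists across the 11 TRAP libraries, 80 relations in all, a comparison chosen after the data were seen. Gria2 rose with the excitatory markers (Pearson's r = 0.90, permutation p = 0.000310, adjusted p = 0.00827 over 80 relations; Spearman's rho = 0.84, permutation p = 0.00223, adjusted p = 0.0162). Nptx1 had r = 0.85 (permutation p = 0.000900, adjusted p = 0.00889) and rho = 0.86 (permutation p = 0.00120, adjusted p = 0.0137), and Nptxr had r = 0.86 (permutation p = 0.000860, adjusted p = 0.00889) and rho = 0.87 (permutation p = 0.000820, adjusted p = 0.0137). These 3 genes tended to be higher in the TRAP libraries with more excitatory marker RNA.

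Without resilient library 5 and susceptible library 10, the 2 farthest from the median of the excitatory markers, r was 0.87 for Gria2, 0.84 for Nptx1 and 0.86 for Nptxr. Within the 6 libraries numbered 1 to 6 it was 0.89, 0.93 and 0.93, and no r was computed for the 5 numbered 7 to 11. Gria4 had r = -0.68 (permutation p = 0.0214, adjusted p = 0.0779), which became -0.52 without those 2 libraries, and rho = -0.61 (permutation p = 0.0527, adjusted p = 0.136). Cacng3 had r = -0.53 (adjusted p = 0.212), which became -0.78 without them. The other 5 members, Nptx2 among them, had an adjusted p of 0.278 or more for r with these markers.

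The relation was not particular to excitatory markers, since summed microglial and astrocyte markers rose with the same 3 genes. With the oligodendrocyte sum, Gria2 passed (r = 0.79, adjusted permutation p = 0.0178). Nptx1 (r = 0.69, adjusted permutation p = 0.0584) and Nptxr (r = 0.67, adjusted permutation p = 0.0740) did not. Without resilient libraries 5 and 3, r with that sum was 0.53 for Nptx1 and 0.37 for Nptxr. With the microglial sum, Gria2 had r = 0.85 (permutation p = 0.00100, adjusted p = 0.00889) and rho = 0.85 (permutation p = 0.00117), Nptx1 had r = 0.89 (permutation p = 0.000880, adjusted p = 0.00889) and rho = 0.84 (permutation p = 0.00243), and Nptxr had r = 0.92 (permutation p = 0.000280, adjusted p = 0.00827) and rho = 0.89 (permutation p = 0.000620). Without susceptible library 10 and non-defeated library 1, r was 0.81, 0.93 and 0.96. With the astrocyte sum, r was 0.85 for Gria2, 0.83 for Nptx1 and 0.82 for Nptxr, with permutation p-values of 0.00115, 0.00260 and 0.00289 and adjusted p-values of 0.00920, 0.0178 and 0.0178. Their rho was 0.64, 0.84 and 0.85 with permutation p-values of 0.0405, 0.00231 and 0.00185, and r was 0.70, 0.92 and 0.97 without susceptible library 10 and resilient library 5. Microglial markers summed to 23.5 to 32.1 CPM and astrocyte markers to 160 to 339 CPM over the TRAP libraries. In non-defeated TRAP the microglial sum was mostly Csf1r, at a mean of 21.2 CPM. Cx3cr1, P2ry12, Tmem119 and C1qa had means of 1.94, 1.56, 1.28 and 1.64 CPM. Against input, Csf1r had a log2 fold change of -0.61 and the rest of that list -2.72 to -1.78. Which cells' RNA Gria2, Nptx1 and Nptxr followed cannot be told apart here.

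**Figure D3:**
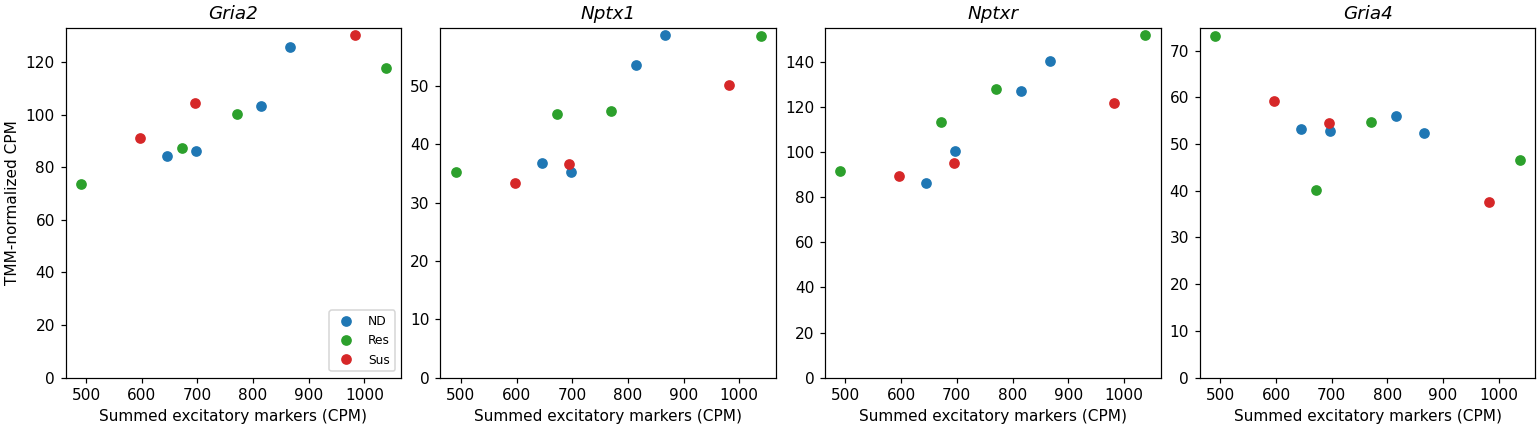
TMM-normalized CPM of Gria2, Nptx1, Nptxr and Gria4 (y axes) against the summed CPM of 6 excitatory neuron markers (x axes) in the 11 TRAP libraries, colored by group. Gria2, Nptx1 and Nptxr lie higher where the markers are higher, with r of 0.90, 0.85 and 0.86, and Gria4 tends to lie lower.

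Levels of different genes were compared per kilobase of exon (RPKM). In non-defeated TRAP, Gria1 led at 51.9 ± 4.73 RPKM (SD, n = 4), followed by Cacng3 at 22.1 ± 5.85 and Nptxr at 22.0 ± 4.77. Cacng2 had 9.81 ± 2.37, Nptx1 8.83 ± 2.26, Gria4 8.50 ± 0.25 and Gria2 6.43 ± 1.24 RPKM. Gria3 had 4.05 ± 0.14, Nptx2 2.38 ± 0.60 and Cacng8 0.552 ± 0.19 RPKM. Gria1 stood clear of all others, Cacng3 and Nptxr could not be ordered, and Cacng2, Nptx1 and Gria4 overlapped, with Gria2 overlapping the first pair of these and lying just under Gria4. In input the order was led by Nptxr at 79.7 ± 9.15 RPKM (SD, n = 3), then Gria1 at 51.4 ± 4.76 and Nptx1 at 47.4 ± 6.10, of which the latter pair overlapped, and Gria4 at 2.83 ± 0.56 and Cacng2 at 2.61 ± 0.66 came near the end, above Cacng8 only. The exons of Gria2 together span 15548 bases and its longest transcript 10371, so its level per kilobase depends on the length used.

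The make-up of each family, as far as its genes were followed here, was also described as shares of their summed counts per kilobase. These shares do not depend on scaling between libraries and were not tested. Within the subunits, Gria1 made up 71.9% ± 1.49 in input and 73.1% ± 3.12 in non-defeated TRAP. Gria2 went from 18.1% ± 0.80 in input to 9.13% ± 2.11 in TRAP, and Gria4 from 4.03% ± 1.13 to 12.02% ± 0.87. The ranges of Gria2 and Gria4 did not overlap between TRAP and input. With the exon lengths used here their order was turned around, which depends on those lengths. In CPM, without division by length, Gria2 stayed above Gria4 in non-defeated TRAP (84.4 to 126 against 52.4 to 55.9 CPM). Among the 3 TARPs followed here, Cacng2 went from 11.6% ± 2.77 to 30.4% ± 2.56 and Cacng3 from 86.2% ± 2.32 to 68.0% ± 2.38. Cacng4, Cacng5 and Cacng7 are outside these shares. Their means were 11.9, 10.7 and 0.711 CPM in input and 6.32, 4.02 and 1.16 CPM in non-defeated TRAP. Those of Cacng2 were 14.4 and 54.1 CPM. Within the pentraxins, Nptx2 had 3.12% ± 0.62 in input and 7.21% ± 1.19 in TRAP, since it fell less than Nptx1 and Nptxr.

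**Figure D4:**
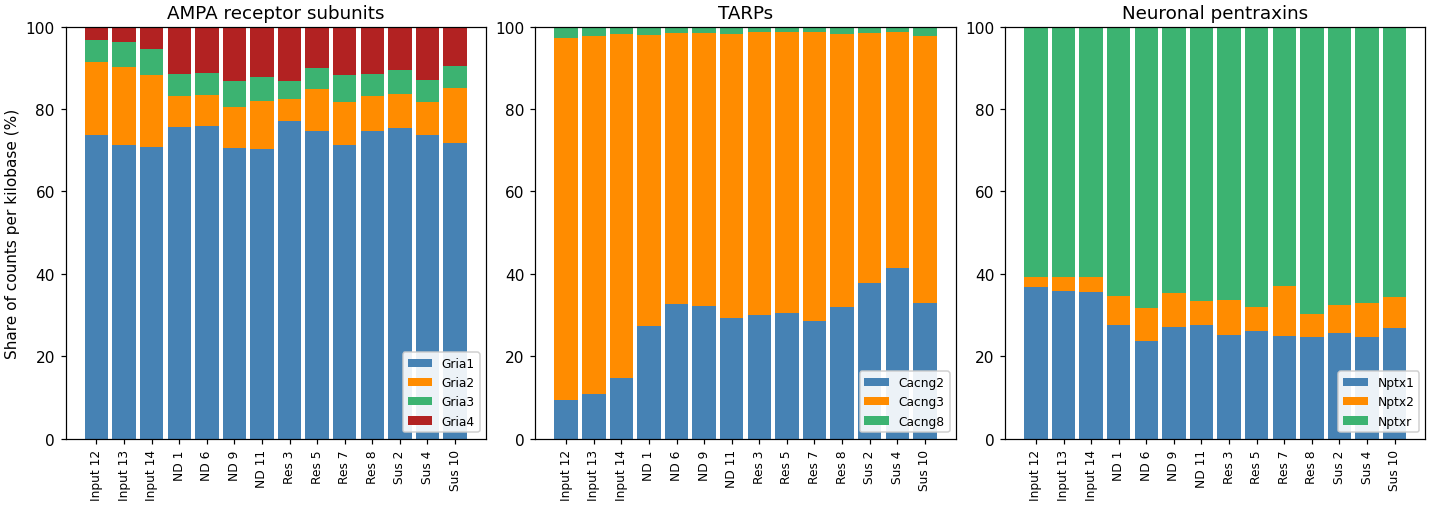
Share of summed counts per kilobase (y axes, percent) held by each gene among the AMPA receptor subunits, TARPs and neuronal pentraxins followed here, in every library (stacked bars). Gria4 and Cacng2 take larger shares in the 11 TRAP libraries than in the 3 input libraries, and Cacng2 takes its largest shares in the 3 susceptible ones.

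The other genes that bind, assemble or anchor AMPA receptors were taken from 3 lists. Of 11 other auxiliary subunits, 1 was higher in TRAP than in input, 6 were lower and 4 neither. Shisa8, of a family of receptor-bound membrane proteins, was higher (log2 fold change 0.96, SE 0.25, adjusted p = 0.00481). Shisa6 of the same family (-1.27), the TARP gene Cacng4 (-0.91) and the cornichon gene Cnih3 (-0.88), whose product escorts and slows AMPA receptors, were the lower ones with the smallest p. Of 8 assembly and editing genes, 3 were higher, namely Abhd6 (log2 fold change 0.66), whose product limits surface delivery of the receptor, Sacm1l (0.73), which encodes a lipid phosphatase, and Adarb1 (0.88, adjusted p = 0.00111), which encodes ADAR2. Lower were Frrs1l (-1.46), needed for receptor assembly, Cpt1c (-0.40) and Adarb2 (-1.56), and 2 were neither.

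Of 13 scaffold and trafficking genes, 2 were higher, 4 lower and 7 neither. The higher pair was Grip1 (log2 fold change 1.21, SE 0.10) and Grip2 (1.86, SE 0.16), whose products hold the tails of GluA2 and GluA3. Dlg1 (-1.43) and Dlg3 (-0.84), which encode scaffolds of the postsynaptic density, and Adam17 (-0.74), which encodes a protease that sheds the pentraxin receptor, were lower. The median log2 fold changes of the lists were -0.53, 0.13 and -0.09 in this order, against -0.04 for all genes.

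To ask whether these genes followed the response to CSDS, the TRAP groups were compared with one another. None of the 10 members passed an adjusted p under 0.05 in any of the 3 comparisons, and the levels of every member overlapped between groups. Between resilient and non-defeated mice, 0% of all genes were called by that rule, 4.38% at an unadjusted p under 0.05 and 2.35% without overlap. Of the members, 0 passed the unadjusted threshold, and the smallest p was 0.362, for Cacng8. Between susceptible and non-defeated mice the shares of all genes were 0.0376%, 13.3% and 8.62%, and 1 member, Cacng2, passed the unadjusted threshold. Between susceptible and resilient mice they were 1.89%, 20.9% and 15.1%, and 0 members passed. A count of 1 or 0 in 10 was thus no larger than the share of all genes in each comparison. The first pair of comparisons share the non-defeated libraries and the last pair the susceptible ones.

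Cacng2 moved most. It had 92.6, 92.1 and 54.5 normalized CPM in susceptible libraries 2, 4 and 10, beside 61.8, 67.6, 48.1 and 38.8 CPM in non-defeated libraries 1, 6, 9 and 11 and 72.4, 59.1, 40.7 and 51.4 CPM in resilient libraries 3, 5, 7 and 8. Susceptible libraries 2 and 4 were above all others, and library 10 lay among the non-defeated and resilient ones. Set against non-defeated mice, its log2 fold change came to 0.56 (SE 0.24, 95% interval 0.04 to 1.08), with an unadjusted p of 0.0361, an adjusted p of 0.349 and an exact permutation p of 0.143. Against resilient mice it was 0.51 (SE 0.24, 95% interval -0.01 to 1.03), with an unadjusted p of 0.0526, an adjusted p of 0.244 and an exact permutation p of 0.171. Neither difference passed an adjusted p under 0.05.

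The unadjusted p for Cacng2 against non-defeated mice was 0.05 or more without non-defeated library 9, non-defeated library 11, susceptible library 2 or susceptible library 4, and likewise without the 4 libraries with high thalamic markers, so that 0 of 10 members passed in each case. Over 18 alternatives the log2 fold change stayed between 0.31 and 0.77 and its adjusted p between 0.151 and 0.932. A730060N03Rik, antisense to Cacng2, differed by 0.09 on the log2 scale (unadjusted p = 0.657). As a share of the 3 TARPs followed here, Cacng2 made up 37.3% ± 4.29 in susceptible mice, 30.4% ± 2.56 in non-defeated and 30.3% ± 1.44 in resilient mice. All 3 susceptible libraries, at 32.8% to 41.4%, were above the non-defeated range of 27.3% to 32.6% and the resilient range of 28.4% to 31.9%, though the gap to the non-defeated range was narrow, and this share was not tested.

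Marker lists of other cell types were set beside Cacng2, and no marker passed an adjusted p under 0.05 between susceptible and non-defeated mice. Of 5 astrocyte markers, 1 was higher in susceptible mice at an unadjusted p under 0.05. All 6 thalamic markers had log2 fold changes below 0 there. The lists of other interneurons and of endothelial cells follow. Of the 6 interneuron markers, 3 were higher in susceptible than in non-defeated mice at an unadjusted p under 0.05 and 0 at an adjusted p under 0.05. Their summed level was 497 to 872 CPM in susceptible mice, 425 to 624 CPM in non-defeated and 432 to 785 CPM in resilient mice, and none of the 6 was at 0. Sst, the gene of somatostatin, had a log2 fold change of 0.68 (unadjusted p = 0.0441, adjusted p = 0.365) between susceptible and non-defeated mice. In non-defeated TRAP the summed level of the list was mostly Sst, Npy and Cck, at means of 190, 184 and 97.6 CPM. Over the 11 TRAP libraries, Cacng2 rose with this sum (r = 0.94, permutation p = 1e-05, the smallest the permutations can give, adjusted p = 0.000800 over 80 relations; rho = 0.97, permutation p = 2e-05, adjusted p = 0.00160). The permutations took no account of the groups. Without susceptible libraries 2 and 4, the 2 farthest from the median, r was 0.82, and within libraries 1 to 6 it was 0.89. The relation was not particular to Cacng2. Cacng3 had rho = 0.81 (permutation p = 0.00374, adjusted p = 0.0205) and r = 0.71 (permutation p = 0.0181, adjusted p = 0.0723) with the same sum. Its r was 0.89 without those 2 libraries and 0.20 within libraries 1 to 6.

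All 4 endothelial markers had log2 fold changes above 0 between susceptible and non-defeated mice, with a median of 0.90. Of them, 1 passed an unadjusted p under 0.05, Cldn5 (log2 fold change 1.32, adjusted p = 0.179, groups not overlapping). All 4 markers were also above 0 between resilient and non-defeated mice (median 1.03), and between susceptible and resilient mice their median was 0.02. Their summed level was 8.03 to 13.04 CPM in susceptible, 3.29 to 5.88 CPM in non-defeated and 4.18 to 18.2 CPM in resilient mice, and 1 of the 4 was at 0 in some TRAP library. Cacng2 had r = 0.16 (permutation p = 0.637, adjusted p = 0.698) and rho = 0.17 (permutation p = 0.615, adjusted p = 0.725) with this sum. With the thalamic sum, Cacng2 had rho = -0.81 (permutation p = 0.00384, adjusted p = 0.0205) and r = -0.62 (permutation p = 0.0337, adjusted p = 0.0965). Within libraries 1 to 6 that r was -0.04. The thalamic sum ran only from 31.0 to 56.1 CPM in these, against 591 CPM in resilient library 7. This value thus cannot show whether the relation holds over the full range. Cacng3 had rho = -0.89 (permutation p = 0.000490, adjusted p = 0.0137) and r = -0.63 (permutation p = 0.0229, adjusted p = 0.0798) with the thalamic sum. Its r was -0.77 without resilient library 7 and non-defeated library 9, and -0.70 within libraries 1 to 6. The relation to thalamic markers was thus not particular to Cacng2. The part of any of these lists in the level of Cacng2 was not tested.

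The 4 subunits were close to level across the TRAP groups. The fitted log2 fold changes ran from -0.08 (Gria2) to 0.07 (Gria1) between resilient and non-defeated mice, from -0.09 (Gria4) to 0.12 (Gria2) between susceptible and non-defeated, and from -0.09 (Gria4) to 0.20 (Gria2) between susceptible and resilient mice. Gria2 had 104, 91.1 and 130 normalized CPM in susceptible libraries 2, 4 and 10 and 73.5, 118, 87.3 and 100.5 CPM in resilient libraries 3, 5, 7 and 8 (95% interval of the log2 fold change -0.17 to 0.57, adjusted p = 0.556). Gria4 had 54.6, 59.2 and 37.5 CPM in susceptible and 73.1, 46.5, 40.1 and 54.7 CPM in resilient libraries (95% interval -0.50 to 0.33, adjusted p = 0.837). The groups lay across one another for both genes, and the defeated mice spread wider in Gria4, with SDs of 14.3 and 11.4 CPM, than the non-defeated mice, with 1.61 CPM. The difference in spread was not tested.

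Gria1 averaged 314 ± 28.6 CPM in non-defeated, 330 ± 74.1 in resilient and 324 ± 50.6 in susceptible TRAP, and Gria3 39.9 ± 1.38, 38.0 ± 2.38 and 39.5 ± 6.95 CPM. The shares of the subunits stayed near those of non-defeated mice as well, with Gria2 at 8.62% in resilient and 9.86% in susceptible mice and Gria4 at 11.6% and 10.97%. The excitatory markers, with which Gria2 rose, ran from 491 to 1038 CPM in resilient and from 597 to 982 CPM in susceptible TRAP, and 0 of 6 passed an unadjusted p under 0.05 in any of the 3 comparisons.

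Of the other TARPs, Cacng3 averaged 61.3 ± 16.2 CPM in non-defeated, 63.6 ± 14.9 in resilient and 64.5 ± 10.4 in susceptible mice. Cacng8 had 1.68, 1.26 and 1.60 CPM in susceptible libraries 2, 4 and 10 and 1.39, 0.970, 0.776 and 1.24 CPM in resilient libraries 3, 5, 7 and 8. Only resilient library 3 lay within the susceptible range (log2 fold change 0.47, SE 0.28, 95% interval -0.13 to 1.08, unadjusted p = 0.118, adjusted p = 0.365). This interval holds both no change and a 2-fold change.

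The 3 pentraxins had log2 fold changes above 0 between resilient and non-defeated mice and below 0 in both comparisons of susceptible mice, and none passed an unadjusted p under 0.05. Nptx1 averaged 46.1 ± 11.8 CPM in non-defeated, 46.2 ± 9.62 in resilient and 40.0 ± 8.91 in susceptible mice. Nptxr averaged 114 ± 24.6, 121 ± 25.3 and 102 ± 17.3 CPM in the same order. Between susceptible and resilient mice the difference was -0.21 for Nptx1 (95% interval -0.65 to 0.24), -0.30 for Nptx2 (-0.84 to 0.25) and -0.25 for Nptxr (-0.64 to 0.15) on the log2 scale. Npcd, which shares bases with Nptxr, differed by -0.47 (unadjusted p = 0.00919, adjusted p = 0.115). Nptx2 was highest in resilient library 7, at 10.7 CPM, which also had the highest summed thalamic markers, 591 CPM, and the other 3 resilient libraries had 5.81, 6.48 and 4.86 CPM.

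**Figure D5:**
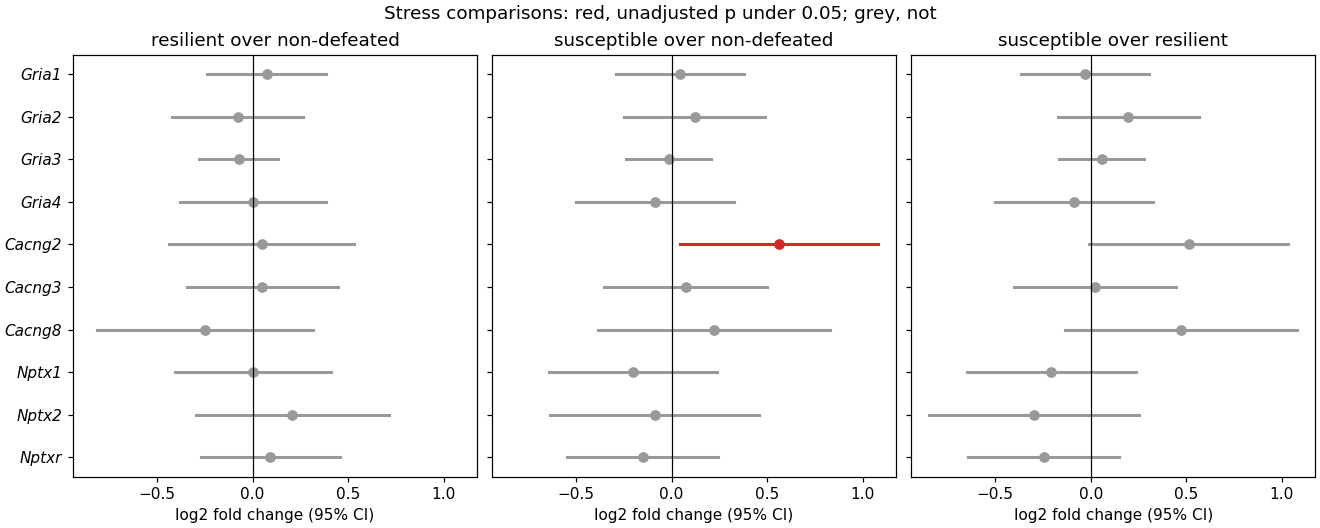
Log2 fold change (x axes, points) with 95% confidence intervals (lines) of the 10 members in resilient over non-defeated, susceptible over non-defeated and susceptible over resilient mice. Red marks the 1 unadjusted p under 0.05, of Cacng2 in susceptible over non-defeated mice, and no member passed an adjusted p under 0.05.

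None of the 3 partner lists held a gene with an adjusted p under 0.05 in a comparison of TRAP groups. Between susceptible and resilient mice at an unadjusted p under 0.05, 1 of 11 auxiliary subunits, 2 of 8 assembly and editing genes and 4 of 13 scaffold and trafficking genes passed, beside 20.9% of all genes. Shisa7 was the one above 0 (log2 fold change 0.48, adjusted p = 0.194). The other 6 were below 0, those with the smallest p being Dlg2 (log2 fold change -0.41, adjusted p = 0.106), which encodes a postsynaptic scaffold, Adar (-0.28, adjusted p = 0.159), which encodes the other widespread RNA-editing enzyme, Cpt1c (-0.30, adjusted p = 0.160) and Dlg3 (-0.49, adjusted p = 0.167). Between susceptible and non-defeated mice 0 of 11, 0 of 8 and 2 of 13 passed the unadjusted threshold, the last pair being Dlg2 (log2 fold change -0.49, adjusted p = 0.180) and Adam17 (0.33, adjusted p = 0.345), beside 13.3% of all genes. Between resilient and non-defeated mice 0 of 11, 0 of 8 and 1 of 13 passed, beside 4.38%. Adarb1, which encodes the editing enzyme of the Gria2 codon, did not pass in any comparison of TRAP groups.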

How the data were processed

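Members and gene lists were chosen with earlier results of these data known. The authors trimmed reads with fastp, aligned them to mm10 with STAR and deposited raw counts per gene for 14 libraries. Per the labels' processing notes the STAR version was 2.5.3a and HTSeq was used, with no version. The annotation is not given in the sources used here. Libraries were made from 1 ng of RNA with a kit that does not mark strand. Of 39017 genes, 37607 were named from GENCODE release M21, and unnamed ones held 0.824% of counts. No column was left out.

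The tests ran in edgeR 4.0.16 under R 4.3.3, with TMM normalization (factors 0.945 to 0.995 in TRAP, 1.10 to 1.12 in input), edgeR's own filter for low genes, leaving 21298, 1 quasi-likelihood fit of the 4 groups, and 2-sided p-values with Benjamini-Hochberg adjustment over all genes. RPKM used the union of exons. Exact permutation tests used log2 CPM with a prior count of 2. Those of correlations were random permutations of the 11 TRAP libraries, without regard to group. No 2 replicates were alike within sampling noise. Steps were tested on simulated data.

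All members are named. Partner genes are named if among the 3 with the smallest p per direction and list in TRAP against input, at an adjusted p under 0.05, or the 4 per direction with the smallest unadjusted p under 0.05 between susceptible and resilient mice, or if a stress comparison called them. Dlg2 and Adam17 between susceptible and non-defeated mice, and Cacng5, Cacng7, Sst, Npy, Cck, Cldn5, the microglial markers, Npcd and A730060N03Rik, were named after their values were seen. Alternatives were other tests, including DESeq2 1.42.0, scalings, filters, samples, a covariate for library number, a GC offset and leaving out each library.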

Additional observations from a re-analysis of the deposited data

How the results depend on the processing

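No paired analysis was possible, since each library has its own number and the labels do not say whether TRAP and input libraries share mice. TRAP and input were therefore tested as independent. In TRAP against input, the calls of Gria2, Gria4, Cacng2, Nptx1 and Nptxr held under all 16 alternatives, with log2 fold changes of -1.33 to -0.76, 1.40 to 1.75, 1.73 to 2.36, -2.89 to -2.31 and -2.24 to -1.75. Nptx2 was called under 13 of 16. The number of members at an unadjusted p under 0.05 between susceptible and resilient mice was 1 in place of 0, this being Cacng2, under the likelihood ratio test, no filter on low counts, at least 10 counts in every library, the GC offset, library number as a covariate in the TRAP libraries and DESeq2 on the 2 groups. It ranged from 0 to 1 when each library was left out, with 1 without resilient library 3 and without susceptible library 10. Between susceptible and non-defeated mice it was 1 and ranged from 0 to 1 when each library was left out, and it was 0 without the 4 libraries over 200 CPM of thalamic markers, an alternative chosen after the data were seen. The causes were not tested. Adjusted calls among the members stayed at 0 in the 3 stress comparisons under every alternative run. Without division by length, the TRAP minus input difference in share was -15.4 points for Gria2 (-8.98 with it), 25.8 for Cacng2 (18.8) and 2.11 for Nptx2 (4.09). Of the members' uncalled log2 fold changes, 20 of 80 leave-one-out values and 12 of 110 others changed sign between resilient and non-defeated mice, 10 of 70 and 9 of 110 between susceptible and non-defeated, and 8 of 70 and 1 of 110 between susceptible and resilient mice.

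Over all genes, 403 were called between susceptible and resilient mice, against 1099 with the likelihood ratio test, 224 with the GC offset, 126 with no filter, 1 in a fit of the TRAP libraries, which became 1109 when the covariate was added to it, 0 in edgeR's fit of the 2 groups, against 1004 with DESeq2 on them, 0 without the 4 libraries and 6 (without resilient library 8) to 1058 (without susceptible library 10) when each library was left out. Between susceptible and non-defeated mice 8 were called, against 189 with the likelihood ratio test, 13 with RLE size factors, 16 with at least 10 counts, 5 in edgeR's fit of the 2 groups and 113 with DESeq2 on them, 0 with the TRAP libraries, with or without the covariate, 0 without the 4 libraries, and 0 to 6 when each library was left out (6 without non-defeated library 6). Between resilient and non-defeated mice 0 were called, and 4 with the likelihood ratio test. At an unadjusted p under 0.05, 933 genes passed between resilient and non-defeated mice, against 590 with the TRAP libraries, 1550 when the covariate was added to them, 1537 without non-defeated library 9 and 1735 without the 4 libraries, and 2835 between susceptible and non-defeated mice, against 1683 in a fit of the 2 groups and 1201 without the 4 libraries.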

Other observations

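Cacng8 was the member with the lowest level per kilobase in every library, input included, at 0.331 to 0.791 RPKM in TRAP and 0.386 to 0.555 RPKM in input, although it is known as the main TARP of hippocampal pyramidal cells. Nptx2, the next lowest in most TRAP libraries, had 1.75 to 4.21 RPKM there. The miRNA gene annotated inside Cacng8 covers 91 of its exon bases and held 7 counts over all 14 libraries. In each group of 4 libraries, 20 groups in all, no value of a member stood apart from the others by Dixon's test.

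Of the 80 relations between members and marker sums over the 11 TRAP libraries, others past an adjusted permutation p of 0.05 for r follow, with r after leaving out the 2 libraries farthest from the median of the markers. Nptx2 had r = 0.92 with the thalamic markers (permutation p = 0.000990, adjusted p = 0.00889; rho = 0.74, permutation p = 0.0130, adjusted p = 0.0576), but 0.45 without resilient library 7 and non-defeated library 9, so that it rests on those 2. Gria1 had r = -0.80 with them (permutation p = 0.000620, adjusted p = 0.00889; rho = -0.85, permutation p = 0.00169) and -0.71 without the same 2. Gria2 had r = 0.79 with the oligodendrocyte markers (permutation p = 0.00285, adjusted p = 0.0178; rho = 0.87, permutation p = 0.000980), and 0.79 without resilient libraries 5 and 3. Gria4 had r = 0.75 with the PV interneuron list, Gad1 and Gad2 included (permutation p = 0.00989, adjusted p = 0.0492; rho = 0.75, permutation p = 0.00943), and 0.63 without susceptible libraries 10 and 4. With the markers of other interneurons, Nptx1 had r = -0.76 (permutation p = 0.00741, adjusted p = 0.0395; rho = -0.82, permutation p = 0.00327) and Nptxr r = -0.76 (permutation p = 0.00719, adjusted p = 0.0395; rho = -0.77, permutation p = 0.00736), and -0.71 and -0.74 without susceptible libraries 4 and 2. Cacng3 had r = -0.76 with the microglial markers, whose sum is mostly Csf1r (permutation p = 0.0105, adjusted p = 0.0492; rho = -0.65, permutation p = 0.0335), and -0.68 without susceptible library 10 and non-defeated library 1. Within libraries 1 to 6, these r were, in the same order, 0.39 for Nptx2, -0.59 for Gria1, 0.96 for Gria2 and 0.74 for Gria4. They were -0.65 for Nptx1, -0.66 for Nptxr and -0.48 for Cacng3. No r was computed for libraries 7 to 11. The thalamic sum ran only from 31.0 to 56.1 CPM in libraries 1 to 6. The values of Nptx2 and Gria1 there thus cannot speak to its full range.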
